A study of Amaranthus hybridus and Amaranthus hypochondriacus with 18 samples.

Results

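Leaves of *Amaranthus hybridus*, a wild amaranth, were compared after water deficit and under regular watering. The comparison used 6 of the 18 RNA sequencing libraries in the series, chosen by their treatment labels: 3 from plants kept without irrigation for 14 days and 3 from watered control plants. All were wild-type plants raised in a greenhouse, and each replicate is described in the study's methods as a pool of mature, non-senescent leaves from 3 plants. Another 3 *A. hybridus* libraries, from plants given rising NaCl concentrations over 14 days, entered the same model to estimate the spread and are shown where a transcript is set against salt. The values were read counts for 30155 transcripts assembled from the leaf reads of this species, and 9686 of them held enough reads to be tested.

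When soil dries, plants accumulate abscisic acid (ABA), a hormone that closes stomata and switches on protective genes. Products of those genes include late embryogenesis abundant (LEA) proteins and dehydrins, which protect proteins and membranes in drying cells, and enzymes that make raffinose sugars, proline and glycine betaine, solutes that hold water. Photosynthesis, nitrate assimilation and growth usually decline at the same time, and amino acids and lipids are broken down for carbon. Amaranths fix carbon by the C4 pathway and are known for tolerating drought and salt.

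Deposited totals were 16763536 to 28343397 counts in the water-deficit libraries and 18144831 to 28689984 counts in the controls, but most of that depth went to very few transcripts. The 20 most abundant ones took 97.1 to 97.6% of counts under water deficit and 85.9 to 98.7% in controls. A single transcript described only as a hypothetical protein (Ahybridus_DN13199_c0_g1_i1) held 66.2 to 71.9% of counts under water deficit and 62.8 to 67.4% in controls. That left 414103 to 679826 counts outside them in the water-deficit libraries and 384997 to 2552806 in the controls, with control 3 highest. Abundances below are in CPM, counts relative to library size, after adjustment by the trimmed mean of M-values (TMM), and the factors were 0.803 to 1.04 under water deficit and 0.349, 0.825 and 4.95 in controls 1, 2 and 3. Organelle-encoded transcripts made up 2.97% ± 0.575 of counts under water deficit and 3.44% ± 0.631 in controls (SD, n = 3 each, exact two-sided permutation p = 0.30, where 0.10 is the smallest p this design allows).

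Library 3 stood apart from the other two in both groups. Across tested transcripts, log2 abundances correlated at 0.947 between water deficit 1 and 2, but at 0.845 and 0.862 between water deficit 3 and those libraries. Water deficit 3 correlated at 0.888 and 0.897 with controls 1 and 2, closer than to its own group, and at 0.78 with control 3. Control 3 correlated at 0.847 and 0.879 with controls 1 and 2, which correlated with each other at 0.945, and at 0.891 with salt 2. All libraries share the same set of transcripts, so these values describe likeness and carry no test. Transcripts described as viral were also uneven. The 4 tested ones summed to 224, 1.06 and 0.521 CPM in water deficit 1, 2 and 3, against 1.90, 9.90 and 0.769 CPM in the controls, and none passed the test. A movement protein transcript alone had 146, 0.396 and 0.149 CPM in the water-deficit libraries, against 0.901, 5.03 and 0.475 CPM in the controls. Whether infection or any other feature of these libraries contributed to the results was not tested.

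Fewer transcripts rose than fell under water deficit. A differentially expressed gene (DEG) was a transcript with a false discovery rate (FDR) under 0.01 in edgeR's quasi-likelihood test and a log2 fold change past 1. By that definition 93 transcripts rose (0.96% of those tested) and 317 fell (3.27%), 410 in all (4.23%). The median log2 fold change was 2.62 among the DEGs that rose and -2.26 among those that fell, against 0.01 over all tested transcripts. All 317 DEGs that fell lay below every control in each water-deficit library, as did 14.1% of all tested transcripts. Of the 93 that rose, 84 lay above every control in each water-deficit library, against 10.7% of all tested transcripts, and in the other 9 water deficit 3 was within or below the control range. With scaling by library totals alone, the median of all transcripts shifted to -1.18, none was called higher and 18 were called lower.

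**Figure D1:**
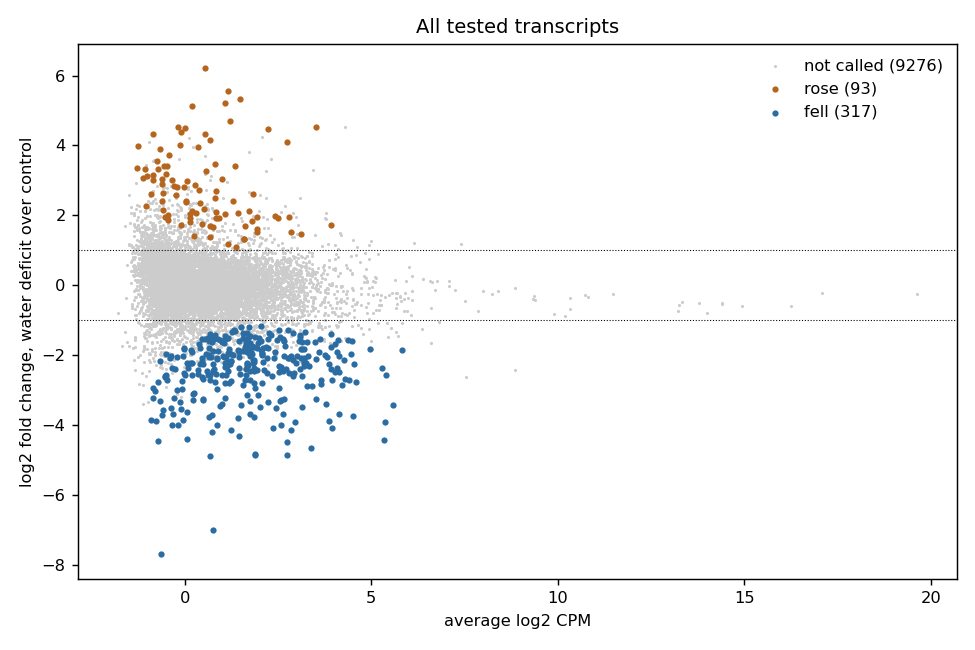
Log2 fold change of water deficit over control (y axis) against average log2 CPM (x axis) for the 9686 tested transcripts of *A. hybridus*. Orange points are the 93 DEGs that rose, blue points the 317 that fell and grey points the rest, and dotted lines mark log2 fold changes of 1 and -1.

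Falls called without water deficit 3 were seen in that library more often than rises called without it. Without water deficit 3 the test called 354 transcripts higher (2.93%) and 625 lower (5.17%). Water deficit 3 did not take part in that choice, although the controls did, and 301 and 602 of these transcripts had also been tested with it. Water deficit 3 lay below every control for 503 of the 602 lower transcripts (83.6%), against 29.1% of all tested transcripts. It lay above every control for 156 of the 301 higher ones (51.8%), against 26.7% of all tested transcripts. Their median log2 ratio to the controls in water deficit 3 was -0.90 for the lower and 0.26 for the higher transcripts.

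The number of calls also differed with the library left out. Leaving out water deficit 1 or 2 lowered the DEGs to 20 and 24 that rose and to 142 and 128 that fell. Leaving out control 1, 2 or 3 gave 105, 36 and 20 that rose and 275, 227 and 212 that fell. Of the DEGs of the full comparison, 119 of the 317 that fell and 9 of the 93 that rose were called in all 6 of these fits. Among the transcripts named below, 16 of 17 that fell were called in all 6, and the exception was a sulfate transporter. Of 42 named transcripts that rose, 4 were called in all 6 fits. All 42 were called without water deficit 3, but 10 and 13 without water deficit 1 and 2, and 21, 12 and 8 without controls 1, 2 and 3. With the salt libraries left out of the model, 15 rose and 139 fell.

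**Figure D2:**
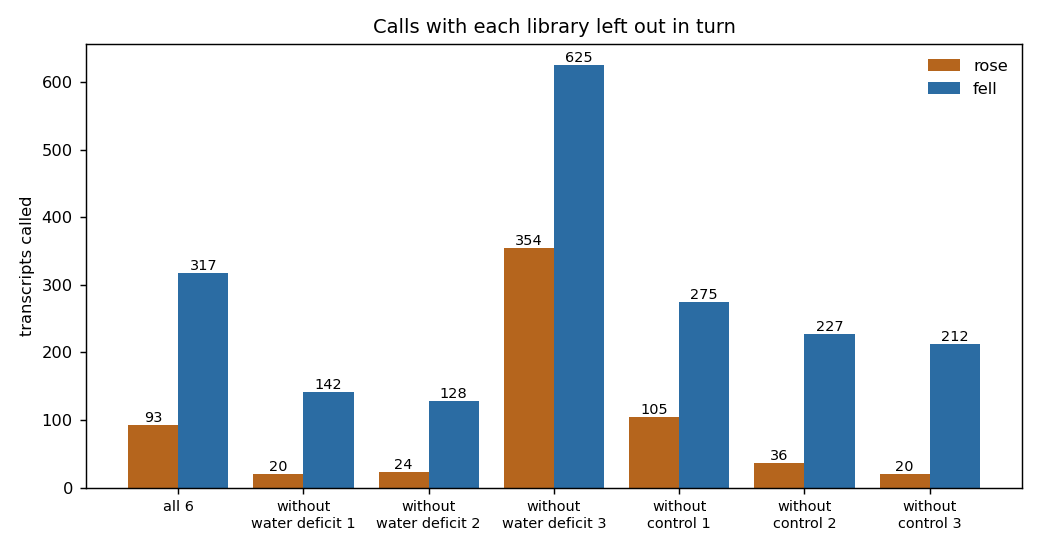
Number of transcripts called (y axis) with all 6 libraries and with each library left out in turn (x axis). Orange bars are transcripts that rose under water deficit and blue bars those that fell. Calls were most numerous without water deficit 3, with 354 that rose and 625 that fell.

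Names for the transcripts came from the sequence-similarity descriptions that the study listed for transcripts it had called on these same libraries. The direction of a group named this way is therefore not independent evidence. Of the tested transcripts 397 had an informative description, and of those 64 rose (16.1%) and 24 fell (6.05%), so the counts of a group below are best read against those shares. Their median log2 fold change was 1.27 (0.10 with scaling by library totals alone), against 0.01 over all tested transcripts. Of the 397, 205 were called higher without water deficit 3 and 14 without control 3. Most of the 317 DEGs that fell had no description in hand. Each name stands for a single assembled transcript, and other members of the same gene family may be present without a name.

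Photosynthesis transcripts from the nucleus were among the most strongly lowered. Of 6 on the list, 5 were tested, 3 fell and 1 rose, with a median log2 fold change of -3.46. A chlorophyll a-b binding protein, which carries antenna pigments around the photosystems, had 0.775, 0.484 and 1.19 CPM under water deficit, against 13.7, 14.5 and 31.8 CPM in controls. Its level was low in every dry library, and the log2 fold change was -4.66 ± 0.45 (SE, edgeR FDR 7.77e-05). A photosystem I reaction center subunit had 0.62, 0.528 and 1.12 CPM under water deficit, against 7.81, 9.02 and 21.8 CPM in controls (log2 fold change -4.15 ± 0.46, edgeR FDR 0.000151). Control 3 was the highest control for both. A beta carbonic anhydrase described as chloroplastic had 0.207, 0.044 and 0.447 CPM under water deficit and 1.60, 2.33 and 2.78 CPM in controls (log2 fold change -3.46 ± 0.50, edgeR FDR 0.000902). All 3 were called in each of the 6 fits that left out a library, and each was also lower than under salt, by log2 differences of -3.65, -3.35 and -3.85 (edgeR FDR 0.000357, 0.000861 and 0.000649). The comparison with salt uses the same water-deficit libraries as the calls, here and below, and is not independent of them.

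The remaining photosynthesis members behaved differently. The small subunit of Rubisco, the enzyme that fixes carbon dioxide, was measured at 0.0516, 0.132 and 1.04 CPM under water deficit and 1.30, 1.81 and 2.65 CPM in controls. The groups did not overlap, but the transcript did not pass the test (log2 fold change -2.50 ± 0.66, edgeR FDR 0.0303). A rubisco accumulation factor, an assembly chaperone of that enzyme, rose to 6.15, 5.14 and 4.10 CPM under water deficit, against 2.70, 1.87 and 1.84 CPM in controls (log2 fold change 1.31 ± 0.26, edgeR FDR 0.00743). None of the 53 tested organelle-encoded transcripts passed the test, and their median log2 fold change was -0.33 (0.03 with scaling by library totals alone). Their summed level ranged from 25500 to 45400 CPM under water deficit and from 5650 CPM in control 3 to 103000 CPM in control 1. These CPM are divided by the TMM factors, 4.95 in control 3 and 0.349 in control 1. As shares of unscaled counts the 2 controls held 2.75% and 3.58%. In bulk leaf RNA, fewer cells of a type and less RNA per cell cannot be told apart.

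Transcripts on the nitrate, ammonium and sulfate list were also mostly lower. Of 6 transcripts on this list, all tested, 3 fell and 1 rose, and the median log2 fold change was -2.52. Nitrate reductase, the first enzyme of nitrate assimilation, had 1.60, 1.23 and 6.56 CPM under water deficit, against 48.8, 37.2 and 36.8 CPM in controls. Water deficit 3 was the highest dry library but still far below every control, and the log2 fold change was -3.74 ± 0.55 (edgeR FDR 0.00104). A NRT1/PTR family-like transcript, from a family of nitrate and peptide transporters, fell to 0.723, 0.484 and 1.27 CPM under water deficit, against 10.0, 7.98 and 5.71 CPM in controls (log2 fold change -3.29 ± 0.42, edgeR FDR 0.000378). A probable sulfate transporter had 0, 0.132 and 0.447 CPM under water deficit and 2.10, 2.02 and 1.18 CPM in controls (log2 fold change -3.30 ± 0.62, edgeR FDR 0.00453), and this call was made in 3 of the 6 fits that left out a library. The NRT1/PTR transcript that rose had 1.91, 1.85 and 2.38 CPM under water deficit, against 1.00, 0.311 and 0.407 CPM in controls (log2 fold change 2.03 ± 0.40, edgeR FDR 0.00613). Ammonium transporter 1 member 2-like lay below every control in each dry library but missed the threshold (log2 fold change -1.75 ± 0.39, edgeR FDR 0.0129). A second probable sulfate transporter had 8.73, 14.0 and 2.31 CPM under water deficit, against 2.9, 2.02 and 4.17 CPM in controls. Its change was positive and did not pass the test (log2 fold change 1.45 ± 0.49, edgeR FDR 0.0801). With scaling by library totals alone it was -0.07.

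Of the 10 largest falls named, 3 were on no list. The DEG with the smallest p was a haloacid dehalogenase-like hydrolase domain-containing protein 3 transcript, from a large family of phosphatases and related enzymes. It had 0.31, 0.44 and 0.298 CPM under water deficit, against 10.8, 9.49 and 11.2 CPM in controls (log2 fold change -4.86 ± 0.30, edgeR FDR 3.34e-06). Its more abundant relative from the same assembly component had 4.29, 2.55 and 1.64 CPM under water deficit and 45.2, 58.8 and 81.1 CPM in controls (log2 fold change -4.44 ± 0.44, edgeR FDR 7.97e-05). Only uniquely mapped reads were counted, so any reads that matched both transcripts were dropped and the split between them is uncertain. Geraniol 8-hydroxylase-like, of the cytochrome P450 family that oxidizes monoterpenes, had 0.207, 0.132 and 0.223 CPM under water deficit, against 5.30, 5.24 and 5.81 CPM in controls (log2 fold change -4.87 ± 0.31, edgeR FDR 3.34e-06). Under salt the log2 fold changes of these 3 transcripts against control were -0.21, -0.11 and -0.07, and each was lower under water deficit than under salt (edgeR FDR 4.32e-06, 0.00014 and 4.32e-06).

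Abscisic acid transcripts moved in both directions. Of 16 on the list, all tested, 4 rose and 2 fell, and the median log2 fold change was 2.11. Those that rose have names from signalling. Protein phosphatases 2C of this kind restrain the pathway and are themselves induced by the hormone in *Arabidopsis*. Protein phosphatase 2C 24 had 6.25, 6.29 and 1.27 CPM under water deficit, against 0.801, 0.778 and 0.972 CPM in controls (log2 fold change 2.41 ± 0.47, edgeR FDR 0.00639). A protein phosphatase 2C 37-like transcript had 4.44, 4.75 and 0.968 CPM under water deficit and 0.901, 0.415 and 0.452 CPM in controls (log2 fold change 2.70 ± 0.50, edgeR FDR 0.00453). In both, water deficit 3 lay only just above the highest control. A more abundant 2C 37-like transcript of the same component had 13.9, 11.8 and 4.32 CPM under water deficit, against 5.4, 3.84 and 5.14 CPM in controls. It did not pass the test (log2 fold change 1.07 ± 0.38, edgeR FDR 0.0978). Further 2C 37-like transcripts, with log2 fold changes of 2.01 and 2.22, also did not pass (edgeR FDR 0.0349 and 0.02).

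G-box-binding factor 3-like and common plant regulatory factor 1-like, bZIP transcription factors from a shared assembly component, rose by log2 fold changes of 2.50 ± 0.44 and 2.34 ± 0.40 (edgeR FDR 0.00332 and 0.00288). The 4 DEGs of this list that rose were each called in 1 to 3 of the 6 fits that left out a library. Abscisic acid-insensitive 5-like protein 5, another bZIP factor, had 6.2, 6.73 and 4.10 CPM under water deficit and 1.60, 2.80 and 2.88 CPM in controls, with no overlap, and missed the threshold (log2 fold change 1.19 ± 0.28, edgeR FDR 0.0171). NAC domain-containing protein 72, a stress-responsive transcription factor, had 7.13, 7.74 and 0.968 CPM under water deficit, against 1.70, 1.09 and 1.5 CPM in controls, so that water deficit 3 lay below every control (log2 fold change 1.91 ± 0.53, edgeR FDR 0.0363).

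The 2 members that fell have names from hormone synthesis and carotenoid breakdown. Xanthoxin dehydrogenase-like, named for an enzyme that converts xanthoxin to abscisic aldehyde, had 0.258, 0.22 and 0.298 CPM under water deficit, against 4.40, 4.04 and 5.21 CPM in controls (log2 fold change -4.15 ± 0.30, edgeR FDR 9.75e-06). A probable chloroplastic carotenoid cleavage dioxygenase, of the family that cuts carotenoids into apocarotenoids, had 3.30, 2.29 and 8.49 CPM under water deficit, against 76.0, 73.3 and 63.5 CPM in controls (log2 fold change -3.93 ± 0.48, edgeR FDR 0.000319). Both were low in all 3 dry libraries, were called in all 6 fits that left out a library, and were lower than under salt (edgeR FDR 0.000189 and 0.00105). Without water deficit 3, 14 of the 16 members were called higher and the same number as before, 2, lower. In that fit 205 of the 397 described transcripts were called higher.

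**Figure D3:**
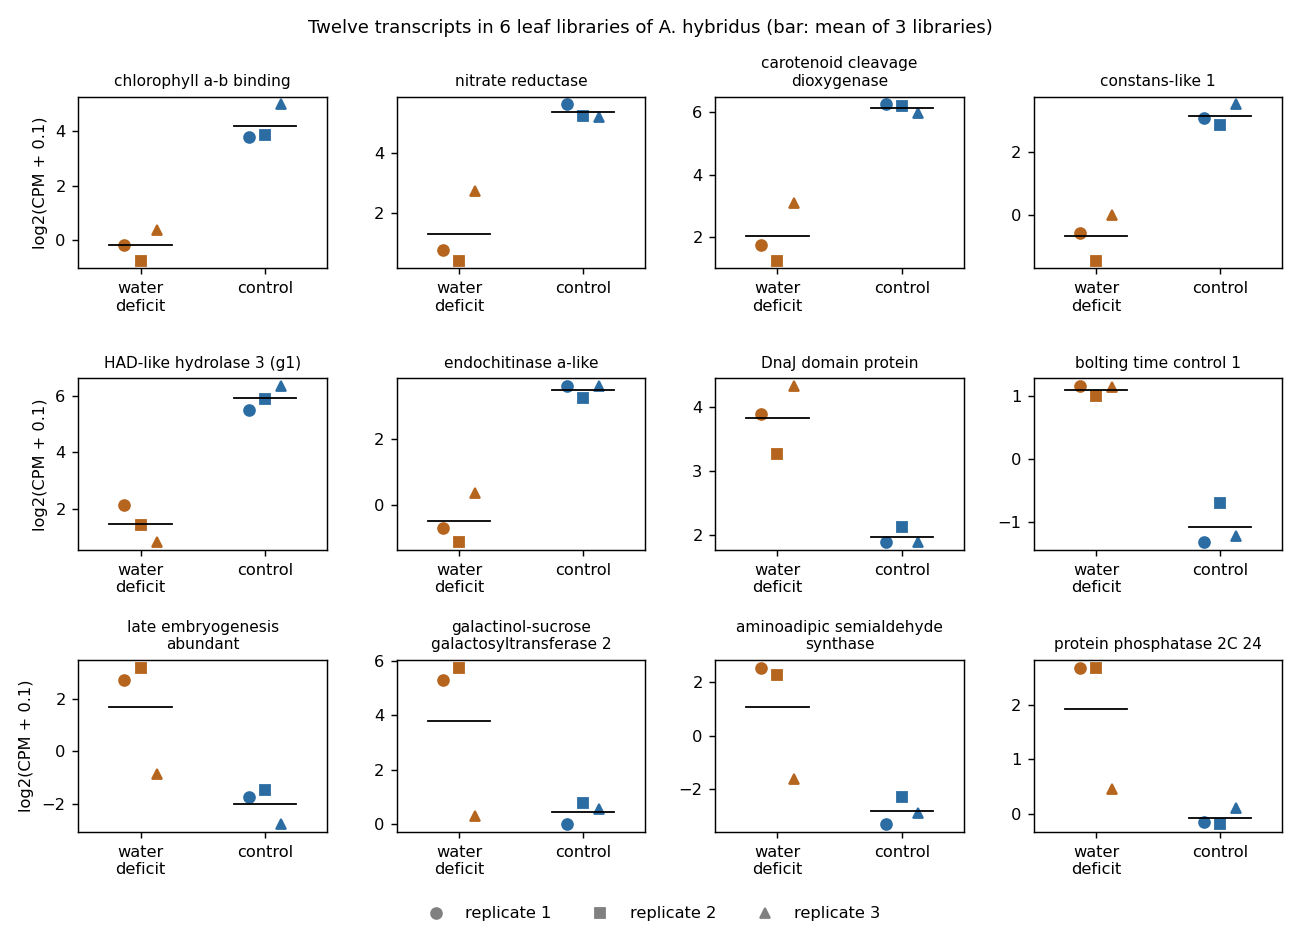
Abundance of 12 named transcripts as log2(CPM + 0.1) (y axis) in the 3 water-deficit and 3 control libraries (x axis), with a bar at the mean of each group and a marker shape per replicate. Transcripts that fell, such as nitrate reductase and constans-like 1, were low in all 3 dry libraries. In the bottom row, the triangle for water deficit 3 lies near the controls.

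Proteins that protect drying cells and the raffinose pathway were high in water deficit 1 and 2. Of 14 LEA and desiccation transcripts 11 were tested, 2 rose and none fell, and the median log2 fold change was 1.10 (-0.38 with scaling by library totals alone). A late embryogenesis abundant transcript had 6.56, 8.97 and 0.447 CPM under water deficit, against 0.20, 0.259 and 0.0452 CPM in controls (log2 fold change 5.56 ± 0.93, edgeR FDR 0.00231). It was 1 of the 10 largest rises, and water deficit 3 was still above each control. An AWPM-19-like transcript, from a family of plasma membrane proteins first linked to ABA in wheat, had 2.27, 3.21 and 0.0745 CPM under water deficit, against 0.20, 0.104 and 0.102 CPM in controls. Water deficit 3 was below every control there (log2 fold change 4.01 ± 0.83, edgeR FDR 0.00849). A dehydrin-like transcript had 31.4, 27.2 and 3.58 CPM under water deficit and 11.5, 8.92 and 23.1 CPM in controls, and an ASR2 protein transcript had 74.6, 58.8 and 6.56 CPM under water deficit and 19.6, 15.9 and 37.9 CPM in controls. Neither passed the test (edgeR FDR 0.64 and 0.398), and water deficit 3 was the lowest library and control 3 the highest control. Without water deficit 3, 8 of 14 tested members were called higher, and without control 3 none was. Of the 397 described transcripts, 205 and 14 were called higher in those fits.

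A probable galactinol-sucrose galactosyltransferase 2, which builds raffinose from galactinol and sucrose, rose with wide differences among the dry libraries. It had 38.8, 52.9 and 1.12 CPM under water deficit, against 0.901, 1.61 and 1.39 CPM in controls (log2 fold change 4.54 ± 0.94, edgeR FDR 0.00844). The level in water deficit 3 lay inside the control range. It was the only DEG among 3 tested raffinose members of 5, and a UDP-glucose 4-epimerase, which supplies the galactose donor, missed the threshold (log2 fold change 3.40 ± 0.75, edgeR FDR 0.0117). Without water deficit 3 all 5 members were tested and all 5 were called higher, against 205 of the 397 described transcripts.

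No proline, betaine or polyamine transcript passed the test among 8 tested, although 7 of the 8 log2 fold changes were positive and the median was 1.06 (-0.33 with scaling by library totals alone). Phosphoethanolamine N-methyltransferase, which makes the choline precursor of glycine betaine, had 106, 124 and 1.42 CPM under water deficit, against 23.6, 30.3 and 47.0 CPM in controls (log2 fold change 1.20 ± 0.89, edgeR FDR 0.451). Choline monooxygenase, the first enzyme from choline to betaine, had 20.9, 16.8 and 0.745 CPM under water deficit, against 4.60, 5.13 and 14.4 CPM in controls (edgeR FDR 0.64). For both transcripts water deficit 1 and 2 were the highest of the 6 libraries and water deficit 3 was the lowest. Arginine decarboxylase, which starts polyamine synthesis, had 36.1, 44.8 and 5.74 CPM under water deficit and 12.0, 9.70 and 9.35 CPM in controls (edgeR FDR 0.101). A proline transporter 2-like transcript was lower in all 3 dry libraries, at 5.78, 6.77 and 7.08 CPM against 11.0, 15.3 and 18.6 CPM in controls, and missed the threshold (log2 fold change -1.20 ± 0.31, edgeR FDR 0.0271). The next 2 were named after their values were seen. Another proline transporter 2-like transcript had a log2 fold change of 0.51 ± 0.47 (edgeR FDR 0.559). Delta-1-pyrroline-5-carboxylate synthase-like had 16.8, 20.1 and 1.94 CPM under water deficit, against 3.0, 3.53 and 2.84 CPM in controls. It did not pass the test (log2 fold change 2.06 ± 0.57, edgeR FDR 0.0379). Without water deficit 3, 5 of the 8 list members were called higher, against 205 of the 397 described transcripts.

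The list of amino acid breakdown and nitrogen recycling held 6 rises among 12 tested, with none falling and a median log2 fold change of 3.01. Of the 6, alpha-aminoadipic semialdehyde synthase-like and methionine gamma-lyase-like break down amino acids, and 1 is a chloroplastic-like branched-chain amino acid aminotransferase. The others are 2 glutamate synthase transcripts and isocitrate lyase. Alpha-aminoadipic semialdehyde synthase-like, the enzyme that starts lysine degradation, had 5.68, 4.71 and 0.223 CPM under water deficit, against 0, 0.104 and 0.0339 CPM in controls (log2 fold change 6.21 ± 0.98, edgeR FDR 0.0016). Only 5 control reads stood behind it, so the size of that change is poorly bounded. Methionine gamma-lyase-like, which breaks down methionine, had 9.30, 11.5 and 0.819 CPM under water deficit, against 0.40, 0.156 and 0.136 CPM in controls (log2 fold change 5.33 ± 0.85, edgeR FDR 0.00169). Isocitrate lyase, a glyoxylate cycle enzyme typical of lipid-consuming tissue, had 20.7, 12.2 and 0.447 CPM under water deficit, against 0.801, 0.674 and 0.294 CPM in controls, with water deficit 3 inside the control range (log2 fold change 4.46 ± 0.91, edgeR FDR 0.00749).

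A chloroplastic-like branched-chain amino acid aminotransferase and 2 glutamate synthase 1 transcripts also rose, by log2 fold changes of 2.84, 3.26 and 4.38 (edgeR FDR 0.00659, 0.00822 and 0.00796). The description of the aminotransferase does not say whether it serves synthesis or breakdown. Glutamate synthase assimilates nitrogen rather than releasing it, and both of its transcripts had water deficit 3 within the control range. Methylcrotonoyl carboxylase, of leucine breakdown, lay above every control in each dry library and missed the threshold (log2 fold change 1.33 ± 0.32, edgeR FDR 0.0199). Without water deficit 3, 12 of 13 tested members were called higher, and without control 3 none was. Of the 397 described transcripts, 205 and 14 were called higher in those fits. The summed level of the 12 members was 80.0, 65.7 and 14.3 CPM under water deficit and 11.1, 11.3 and 11.1 CPM in controls.

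Sugar mobilisation and transport contributed 5 rises and no fall among 11 tested, with a median log2 fold change of 1.93. Sugar transport protein 13, a plasma membrane hexose importer, had 4.23, 4.49 and 2.01 CPM under water deficit, against 1.40, 0.778 and 0.837 CPM in controls (log2 fold change 1.93 ± 0.35, edgeR FDR 0.00355). A second transcript of the same component rose by 2.18 ± 0.42 on the log2 scale (edgeR FDR 0.00527), and both were higher than under salt (edgeR FDR 0.00448 and 0.00747). An inhibitor of cell wall and vacuolar fructosidase, which blocks invertase, rose by 2.04 ± 0.41 on the log2 scale (edgeR FDR 0.00719). Glucose-6-phosphate 1-epimerase and a glyceraldehyde-3-phosphate dehydrogenase C subunit rose at levels of 0.521 to 1.39 CPM under water deficit, against 0.0226 to 0.305 CPM in controls. Sucrose synthase missed the threshold (log2 fold change 1.02 ± 0.43, edgeR FDR 0.162). The sucrose transporter had 16.0, 15.4 and 67.9 CPM under water deficit and 69.5, 51.1 and 40.2 CPM in controls, so here too water deficit 3 lay with the controls (edgeR FDR 0.438).

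**Figure D4:**
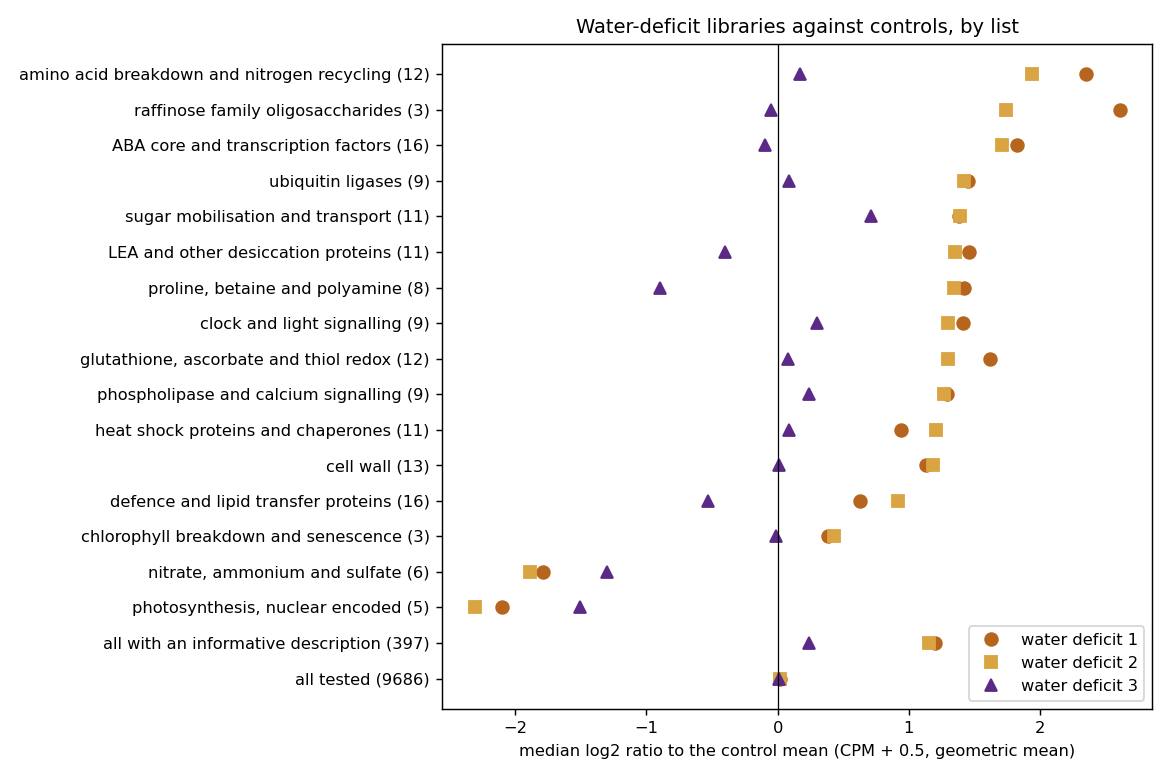
Median log2 ratio of each water-deficit library to the geometric mean of the 3 controls (x axis, CPM + 0.5) over the tested members of each list (y axis, number tested in brackets). On each list drawn, water deficit 1 and 2 lie closer to each other than to water deficit 3, as they do over the 397 described transcripts (1.20, 1.15 and 0.24). Water deficit 3 is negative with them for photosynthesis and for nitrate, ammonium and sulfate. It is near 0 or below it for the LEA, ABA, raffinose and proline lists. The same holds for the defence, senescence, cell wall, redox, chaperone and ubiquitin ligase lists (-0.53 to 0.09).

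Set out by library, most lists differed between water deficit 3 and the other two dry libraries, and so did the described transcripts as a whole. For nuclear photosynthesis the median log2 ratios to the controls were -2.10, -2.31 and -1.51 in water deficit 1, 2 and 3, and for nitrate, ammonium and sulfate they were -1.79, -1.89 and -1.30. For LEA and desiccation proteins they were 1.46, 1.35 and -0.40, for the ABA list 1.82, 1.71 and -0.10, and for proline, betaine and polyamines 1.42, 1.34 and -0.90. Water deficit 3 was also near 0 or below it for cell wall (0.01), redox (0.08), chaperone (0.09), ubiquitin ligase (0.09) and defence (-0.53) transcripts. Over the 397 described transcripts the ratios were 1.20, 1.15 and 0.24, and over all tested transcripts 0.02, 0.02 and 0.01. The high ratios in water deficit 1 and 2 were thus shared by described transcripts at large, and the LEA and proline lists had lower median log2 fold changes than these (1.10 and 1.06 against 1.27). Because members were named from calls on these libraries, no test was made of the lists.

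Redox and chaperone transcripts held several rises that were seen in all 3 dry libraries. The median log2 ratios of these lists in water deficit 3 were nevertheless 0.08 and 0.09. Among 12 tested redox members 4 rose and none fell (median log2 fold change 1.57). Glutathione S-transferase U19-like, a detoxifying enzyme, had 2.22, 2.42 and 1.94 CPM under water deficit, against 0.30, 0.259 and 0.147 CPM in controls (log2 fold change 3.46 ± 0.40, edgeR FDR 0.0002). It was called in all 6 fits that left out a library and was also higher under salt than in the shared controls (log2 fold change 3.73, edgeR FDR 0.00324). It was the single transcript called between salt and control (0.0103% of those tested). A chloroplastic-like glutathione S-transferase rose by 3.95 ± 0.66 on the log2 scale (edgeR FDR 0.00231). L-ascorbate peroxidase 1, which removes hydrogen peroxide, had 2.12, 1.58 and 1.64 CPM under water deficit, against 0.701, 0.104 and 0.181 CPM in controls (log2 fold change 2.86 ± 0.49, edgeR FDR 0.00268). Probable nucleoredoxin 2 had 8.93, 11.2 and 1.79 CPM under water deficit and 0.801, 0.985 and 1.57 CPM in controls (log2 fold change 2.62 ± 0.52, edgeR FDR 0.00668). Monodehydroascorbate reductase missed the threshold (log2 fold change 0.82 ± 0.27, edgeR FDR 0.0723).

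Of 11 tested members of the heat shock and chaperone list 3 rose and none fell. A chaperone domain protein that the list did not hold, named after its values were seen, fell to 0.258, 0.572 and 0.894 CPM under water deficit, against 5.20, 5.34 and 7.26 CPM in controls (log2 fold change -3.43 ± 0.41, edgeR FDR 0.000278), and was called in all 6 fits that left out a library. A DnaJ heat shock N-terminal domain-containing transcript, from the family of co-chaperones of Hsp70, had 14.7, 9.50 and 19.9 CPM under water deficit, against 3.60, 4.25 and 3.61 CPM in controls. Water deficit 3 was its highest library, and it was called in all 6 fits that left out a library (log2 fold change 1.94 ± 0.31, edgeR FDR 0.0017). Heat shock 70 kDa protein 17 rose by 1.41 ± 0.30 on the log2 scale (edgeR FDR 0.00984). A stromal 70 kDa heat shock-related transcript rose by 3.73 ± 0.74 on the log2 scale (edgeR FDR 0.00668), with 1.81, 1.98 and 0.149 CPM under water deficit and 0.10, 0.156 and 0.0791 CPM in controls. Heat shock cognate 70 kDa protein 2-like, the most abundant of those not called, was lower in each dry library without passing the test (log2 fold change -0.85 ± 0.28, edgeR FDR 0.0778).

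Clock and light-signalling transcripts split in direction, with 3 rises and 2 falls among 9 tested, and the calls showed little difference among the dry libraries. Constans-like 1, of a family of zinc-finger regulators of flowering and light responses, had 0.568, 0.264 and 0.894 CPM under water deficit, against 8.31, 7.05 and 11.2 CPM in controls (log2 fold change -4.01 ± 0.40, edgeR FDR 7.97e-05). Two-component response regulator-like APRR5, an evening repressor of the clock in *Arabidopsis*, had 4.70, 4.53 and 2.98 CPM under water deficit, against 17.8, 16.9 and 17.3 CPM in controls (log2 fold change -2.08 ± 0.27, edgeR FDR 0.000428). Its salt value against the same controls was -2.03 (edgeR FDR 0.0135). Response regulator-like PRR37 rose to 1.14, 1.01 and 1.27 CPM under water deficit, against 0, 0.156 and 0.158 CPM in controls (log2 fold change 3.01 ± 0.50, edgeR FDR 0.00216). Bolting time control 1, a relative of PRR37 known from sugar beet as a switch for bolting, had 2.12, 1.89 and 2.09 CPM under water deficit, against 0.30, 0.518 and 0.328 CPM in controls (log2 fold change 2.41 ± 0.40, edgeR FDR 0.00235).

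A partial timing of CAB transcript, named for the evening clock gene TOC1, rose by 2.13 ± 0.43 on the log2 scale (edgeR FDR 0.00711), while one described as APRR1, another name of TOC1, lay above every control without passing the test (log2 fold change 1.5 ± 0.37, edgeR FDR 0.0224). Bolting time control 1 and PRR37 were called in 4 of the 6 fits that left out a library, and the timing of CAB transcript in 1. The hour of sampling is not given in the labels, and whether it differed between groups was not tested.

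Cell wall transcripts also split, with 3 rises and 2 falls among 13 tested. Cellulose synthase-like proteins G2 and G3, from a family of glycosyltransferases, had 0.207, 0.44 and 0.745 CPM and 0.103, 0.044 and 0.223 CPM under water deficit, against 6.81, 11.3 and 11.6 CPM and 1.70, 2.96 and 1.64 CPM in controls. Both were low in all dry libraries, with log2 fold changes of -4.48 ± 0.45 and -4.19 ± 0.52 (edgeR FDR 7.97e-05 and 0.000324). A probable galacturonosyltransferase-like 9, of a family linked to pectin and xylan synthesis, rose by 4.53 ± 0.64 on the log2 scale (edgeR FDR 0.000794), with 9 control reads behind it. Trichome birefringence-like 38, of a family that acetylates wall polysaccharides, had 4.39, 7.39 and 5.89 CPM under water deficit, against 1.70, 1.30 and 2.3 CPM in controls (log2 fold change 1.70 ± 0.32, edgeR FDR 0.00478). A hydroxyproline-rich glycoprotein family transcript rose by 3.12 ± 0.64 on the log2 scale (edgeR FDR 0.00804).

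Defence transcripts gave 1 rise and 2 falls among 16 tested, and the median log2 fold change was 0.52 (-0.31 with scaling by library totals alone). Endochitinase A-like, which degrades chitin, had 0.516, 0.352 and 1.19 CPM under water deficit, against 12.0, 9.33 and 12.0 CPM in controls (log2 fold change -4.09 ± 0.40, edgeR FDR 7.77e-05). Major allergen Pru ar 1-like, of the pathogenesis-related PR-10 family, fell by 3.58 ± 0.59 on the log2 scale (edgeR FDR 0.0022). Endochitinase PR4-like rose, with 5.37, 6.55 and 0.149 CPM under water deficit and 0.20, 0.259 and 0.215 CPM in controls (log2 fold change 4.17 ± 0.89, edgeR FDR 0.00979), and water deficit 3 was below every control. A lipid transfer protein, of a family that carries cuticle lipids, had 34.1, 39.5 and 0.67 CPM under water deficit, against 1.60, 0.622 and 4.86 CPM in controls, and did not pass the test (log2 fold change 3.30 ± 1.01, edgeR FDR 0.0564).

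Signalling and protein turnover transcripts held 1 and 2 rises among 9 tested each, against 16.1% called higher over all described transcripts. A sodium/calcium exchanger family transcript, which moves calcium across membranes, had 10.7, 8.71 and 3.50 CPM under water deficit, against 1.90, 1.56 and 2.41 CPM in controls (log2 fold change 1.94 ± 0.38, edgeR FDR 0.00624). It was the only DEG among 9 tested phospholipase and calcium transcripts, and phospholipase D delta, which makes phosphatidic acid in drying tissue, missed the threshold (log2 fold change 1.38 ± 0.32, edgeR FDR 0.016). Among 9 tested ubiquitin ligase transcripts 2 rose, F-box protein PP2-B12 by 1.51 ± 0.26 and a BTB/POZ domain-containing protein by 1.62 ± 0.33 on the log2 scale (edgeR FDR 0.00292 and 0.00743). A RING finger and CHY zinc finger protein was abundant and uneven, at 51.1, 60.0 and 18.8 CPM under water deficit and 12.6, 21.7 and 19.8 CPM in controls (edgeR FDR 0.0933). Of 3 tested senescence and chlorophyll breakdown transcripts only isocitrate lyase rose. The most abundant of them, a senescence-associated protein, had 28.0, 36.9 and 34.6 CPM under water deficit, inside the range of controls 1, 2 and 3 (106, 38.6 and 4.59 CPM). The organelle-encoded sum fell across the controls in the same order (103000, 48500 and 5650 CPM), so nothing about senescence is read from this transcript.

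Among the largest rises, 4 belonged to no list. Inorganic pyrophosphatase 2-like had 18.4, 29.3 and 1.27 CPM under water deficit, against 0.60, 0.83 and 1.24 CPM in controls (log2 fold change 4.09 ± 0.77, edgeR FDR 0.00478). Water deficit 3 lay barely above the highest control for it. A Rcr3-like cysteine protease, of a family of secreted defence proteases known from tomato, had 7.54, 2.55 and 3.20 CPM under water deficit, against 1.40, 0.156 and 0.226 CPM in controls (log2 fold change 3.41 ± 0.64, edgeR FDR 0.00466). A G-type lectin S-receptor-like kinase rose by 3.04 ± 0.58 on the log2 scale and an ACT domain-containing protein ACR10-like by 2.07 ± 0.31 (edgeR FDR 0.00539 and 0.00113). The last was called in all 6 fits that left out a library, at 5.58, 5.72 and 3.43 CPM under water deficit and 1.70, 1.19 and 0.871 CPM in controls. The rise with the smallest p was a transcript with no similarity description (Ahybridus_DN8466_c0_g1_i1), at 7.95, 6.42 and 2.98 CPM under water deficit, against 0.10, 0.104 and 0.181 CPM in controls (log2 fold change 5.21 ± 0.44, edgeR FDR 3.9e-05).

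Of the 317 transcripts that fell under water deficit, 165 were also lower than in salt-treated leaves by the same thresholds (1.86% of all tested transcripts were). Of the 93 that rose, 15 were higher than under salt (0.258% of all tested transcripts). The DEGs were chosen for their values in the same water-deficit libraries, so shares above those of all transcripts would arise from the choice, and nothing is read from them. The median log2 fold change of salt over control was -0.35 for the 317 and 0.97 for the 93. These salt values share the control libraries with the water-deficit values, so their likeness is not independent. None of the 317 and 1 of the 93 passed the same thresholds between salt and control.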

How the data were processed

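Leaf RNA was sequenced as single-end TruSeq libraries on an Illumina NextSeq 500. The authors assembled a transcriptome per species with Trinity, mapped reads with Bowtie2 2.3.0 and deposited raw counts of uniquely mapped reads per transcript, with no normalization; reads shared by near-identical transcripts were dropped, which lowers gene-family members. No column of sample values was left unused (0). The count table of the other species was not used here, because its transcripts are not paired with these.

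The deposited counts of 9 *A. hybridus* libraries were filtered with filterByExpr, scaled by TMM and fitted with the quasi-likelihood model of edgeR 4.0.16 (R 4.3.3) by group, and the contrast was water deficit minus control with Benjamini-Hochberg adjustment. DESeq2 1.42.0 was an alternative. The common dispersion was 0.0963. Standard errors are the log2 fold change divided by the square root of F. The procedure was tested on simulated counts. Correlations and list medians used log2(CPM + 0.5).

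Transcripts named were the 10 DEGs with the largest rise and the 10 with the largest fall among those with average log2 CPM of at least 1, no overlap between groups and an informative description, DEGs on 19 lists, up to 4 others per list, and the smallest p in each direction. Descriptions were taken from the study's lists, of which entries for 597 transcripts of this species were in hand, with the list of falls shortened. The members and lists were chosen with earlier results of these data known. Replicates are biological by the labels, and the study's methods describe each as pooled leaves of 3 plants, in a randomized block layout that the labels do not tie to replicate numbers. Shares were compared by exact permutation tests, 4 in all, with adjusted p of 0.90 each. Alternatives tried were other scalings, filters, thresholds and tools, thinned counts, a replicate block and leaving out each library.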

Additional observations from a re-analysis of the deposited data

How the results depend on the processing

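The counts of DEGs that rose and fell varied with several choices. Scaling by library totals alone moved the median log2 fold change of all transcripts to -1.18 and left 18 DEGs, 0 that rose and 18 that fell. Relative to that shift the directions of the named DEGs held, since none of 59 reversed, although 8 were still called. Values not called that changed sign under it included -0.67 for ASR2 protein, -1.13 for the dehydrin-like transcript, -0.17 for abscisic acid-insensitive 5-like, -0.33 for phosphoethanolamine N-methyltransferase, -1.11 for choline monooxygenase, -0.05 for sucrose synthase, -0.65 for monodehydroascorbate reductase and -0.04 for the RING finger and CHY zinc finger protein. Others were -0.15 for the more abundant 2C 37-like transcript, -0.07 for the second sulfate transporter and -0.86 for the other proline transporter 2-like. The model on the 6 libraries compared gave 154 DEGs (15 and 139). No filter gave 728, with 261 that rose, and thinning to equal depth gave 253, with 40 that rose. A log2 limit of 2 left 210 that fell, and FDR under 0.05 gave 915 (294 and 621). With each library left out, totals ranged from 152 to 979, rises from 20 to 354 and falls from 128 to 625. RLE factors, DESeq2, edgeR's exact test, the CPM filter and leaving out the 20 most abundant transcripts gave totals of 402, 548, 489, 324 and 409. The cause of these differences was not tested beyond the number of libraries or transcripts that each one used.

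Same-numbered libraries of water deficit and control did not deviate together, at correlations of -0.21, 0.07 and -0.13 for numbers 1, 2 and 3, so the numbers were not taken as pairs. The study used a randomized block layout, but no label ties a number to a block. With the replicate block, 279 DEGs were called, 40 that rose and 239 that fell. Of the named DEGs, 20 that rose and 1 that fell, the sulfate transporter, were not called with it, and the senescence-associated protein changed sign to 0.10. Its values with a library left out ranged from -1.12 to 0.62, and those of the movement protein from -2.80 to 6.30, turning negative without water deficit 1. The counts outside the 20 most abundant transcripts set the precision of every value here, and transcripts under 1 CPM rest on few reads in most libraries.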

Other observations

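Of 37 described DEGs on no list, 27 rose and 10 fell, and 7 of them were named by the rule above. Some of the others follow, chosen after their values were seen. In the regulatory group, WNK4, a serine/threonine kinase, had 10.9, 12.1 and 4.84 CPM under water deficit, against 1.90, 3.27 and 2.16 CPM in controls (log2 fold change 1.93 ± 0.36, edgeR FDR 0.00441). Transcription factor bHLH130-like had 6.71, 7.61 and 3.50 CPM under water deficit and 1.10, 1.66 and 2.02 CPM in controls (log2 fold change 1.84 ± 0.34, edgeR FDR 0.00466). Topless-related protein 4, a co-repressor of transcription, had 15.4, 14.5 and 9.39 CPM under water deficit, against 4.80, 6.27 and 3.24 CPM in controls (log2 fold change 1.47 ± 0.30, edgeR FDR 0.00823). In lipid synthesis, acetyl-CoA carboxylase 1-like, which makes malonyl-CoA, had the highest average log2 CPM over the 9 libraries among described DEGs that rose (3.93), at 25.1, 23.0 and 17.9 CPM under water deficit and 7.61, 8.04 and 4.41 CPM in controls (log2 fold change 1.73 ± 0.31, edgeR FDR 0.00334). In all 4, every dry library lay above every control, but each call was made in only 1 or 2 of the 6 fits that left out a library.

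Ribosomal proteins of the cytosol supplied 3 rises at low levels. The transcripts described as L19-1 and L8-3 of the large subunit and S16-3 of the small subunit had 0.745 to 1.86 CPM under water deficit, against 0.0113 to 0.50 CPM in controls, with log2 fold changes of 2.97, 2.82 and 4.34 (edgeR FDR 0.00223, 0.00111 and 0.00149). L19-1 and L8-3 were called in all 6 fits that left out a library. Only 4 control reads stood behind S16-3. Under salt the values against the same controls were 2.57, 1.93 and 3.71, and none passed the test (edgeR FDR 0.109, 0.211 and 0.109).

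Among falls, a tropinone reductase homolog had 1 read in the 3 water-deficit libraries together, against 390 reads in the 3 controls (edgeR FDR 5.01e-05), and was called in all 6 fits that left out a library. Its levels were 0.0516, 0 and 0 CPM under water deficit and 3.30, 1.97 and 3.61 CPM in controls. Probable boron transporter 2 had 0.155, 0.22 and 0.745 CPM under water deficit, against 2.80, 2.96 and 4.87 CPM in controls (log2 fold change -3.41 ± 0.54, edgeR FDR 0.00157). Plant cadmium resistance 2-like, of a family of small metal-transport proteins, had 0.103, 0.0879 and 0.149 CPM under water deficit, against 2.10, 2.96 and 4.67 CPM in controls (log2 fold change -4.89 ± 0.49, edgeR FDR 7.97e-05). Auxin-binding protein ABP19b-like had 0.207, 0.0879 and 0.596 CPM under water deficit and 2.3, 2.38 and 3.02 CPM in controls (log2 fold change -3.28 ± 0.46, edgeR FDR 0.000796). All of these were low in each dry library, including water deficit 3.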
